A study of Mus musculus with 6 samples.

Results

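The 9 genes described here follow retinoic acid, the active form of vitamin A, from supply to breakdown. They are the retinol carrier *Rbp4*, the uptake receptor *Stra6*, the retinal dehydrogenases *Aldh1a1*, *Aldh1a2* and *Aldh1a3*, the retinoic acid carriers *Crabp1* and *Crabp2*, the receptor *Rarb* and the breakdown enzyme *Cyp26b1*. They were taken by symbol from the 39179 genes counted, and all 9 had counts in at least 4 of the 6 libraries. The comparison set *Cxcl12*DsRed- cTEC against *Cxcl12*DsRed+ cTEC, sorted from untreated Cxcl12::DsRed mice at 10 weeks of age. These mice carry a knock-in on a C57BL/6 background that places DsRed, which fluoresces red, in cells with an active *Cxcl12* gene, a chemokine gene of cortical epithelium. All libraries thus carry the reporter allele, and they differ in whether the sorted cells showed DsRed. The sort kept CD45-EpCAM1+UEA1-Ly51+ cells, the surface definition of cortical thymic epithelial cells (cTEC). Experiments A, B and C each yielded a pair of libraries, 1 per subset, and the study describes these as independent biological replicates (n = 3 per subset). The legend of the study's RNA-seq figure also calls its graphs technical triplicates from 1 experiment, which stands for 3 separately sorted biological replicates. How many mice stand behind a library, and the zygosity of the knock-in, were not stated in the labels or methods.

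Retinol travels in plasma bound to RBP4 and can enter cells through the receptor STRA6. Dehydrogenases of the ADH and RDH families oxidise retinol to retinal, and ALDH1A enzymes oxidise retinal to retinoic acid. CRABP proteins and FABP5 carry retinoic acid inside the cell, where it can reach RAR and RXR receptors at DNA, and CYP26 enzymes break it down. In the thymus, retinoic acid is known to be made by stromal cells and to act on both thymocytes and epithelium.

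The libraries held 34574900 to 44969195 counts in genes in *Cxcl12*DsRed- cTEC and 38875590 to 51042679 in *Cxcl12*DsRed+ cTEC. The DsRed transcript had 580 to 1129 counts in *Cxcl12*DsRed- cTEC and 45495 to 79903 in *Cxcl12*DsRed+ cTEC, as labelled. Levels are given as CPM, counts relative to the TMM-scaled library size. Of 12 cTEC markers, 9 were lower in every *Cxcl12*DsRed- cTEC library than in every *Cxcl12*DsRed+ cTEC library, among them *Foxn1* at 53.8 to 135 CPM in *Cxcl12*DsRed- cTEC, against 156 to 291 CPM in *Cxcl12*DsRed+ cTEC. *Epcam* was the 1 cTEC marker higher in every *Cxcl12*DsRed- cTEC library. A list of 12 endothelial markers summed to 38.3 to 87.5 CPM in *Cxcl12*DsRed- cTEC and to 667, 614 and 4845 CPM in *Cxcl12*DsRed+ cTEC of A, B and C, so that the *Cxcl12*DsRed+ cTEC library of C stood apart from the other *Cxcl12*DsRed+ cTEC libraries.

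Among the retinoic acid genes, the supply, synthesis and carrier genes *Rbp4*, *Aldh1a1*, *Aldh1a3* and *Crabp1* were higher in every *Cxcl12*DsRed- cTEC library than in every *Cxcl12*DsRed+ cTEC library, and the breakdown enzyme *Cyp26b1* was lower in every one. These are 5 of the 8 members tested, while 19.0% of the 15576 genes tested did not overlap between the subsets, 9.73% with *Cxcl12*DsRed- cTEC higher and 9.32% with *Cxcl12*DsRed- cTEC lower. *Stra6*, *Crabp2* and *Rarb* overlapped, and *Aldh1a2* did not pass the filter on low counts. With edgeR's quasi-likelihood test and Benjamini-Hochberg adjustment, 0 of the 8 tested members passed an adjusted p of 0.05, where 0.623% of all genes tested did. At an unadjusted p under 0.05 there were 6 of 8 members, against 11.8% of all genes. edgeR's likelihood ratio test called 4 members higher and 1 lower, against 5.65% of all genes, 3.53% higher and 2.12% lower. DESeq2 called 5 members higher and 1 lower, against 6.94% of all genes, 4.52% higher and 2.42% lower. With a block by experiment, the quasi-likelihood test called 0 members (0.469% of all genes) and the likelihood ratio test 6 (6.81%). Voom called 0 members (0.0257% of all genes), and the quasi-likelihood test with no filter called 2 (0.725%). In the same direction in all 3 experiments were 6 of 8 members, against 35.0% of all genes tested. The median log2 fold change, *Cxcl12*DsRed- cTEC over *Cxcl12*DsRed+ cTEC, was 1.89 for the tested members and 0.02 for all genes tested. The members were chosen with earlier results of these data known, so these shares describe them and do not test them as a set. In libraries of sorted cells, fewer cells of a type and less RNA per cell cannot be told apart.

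**Figure D1:**
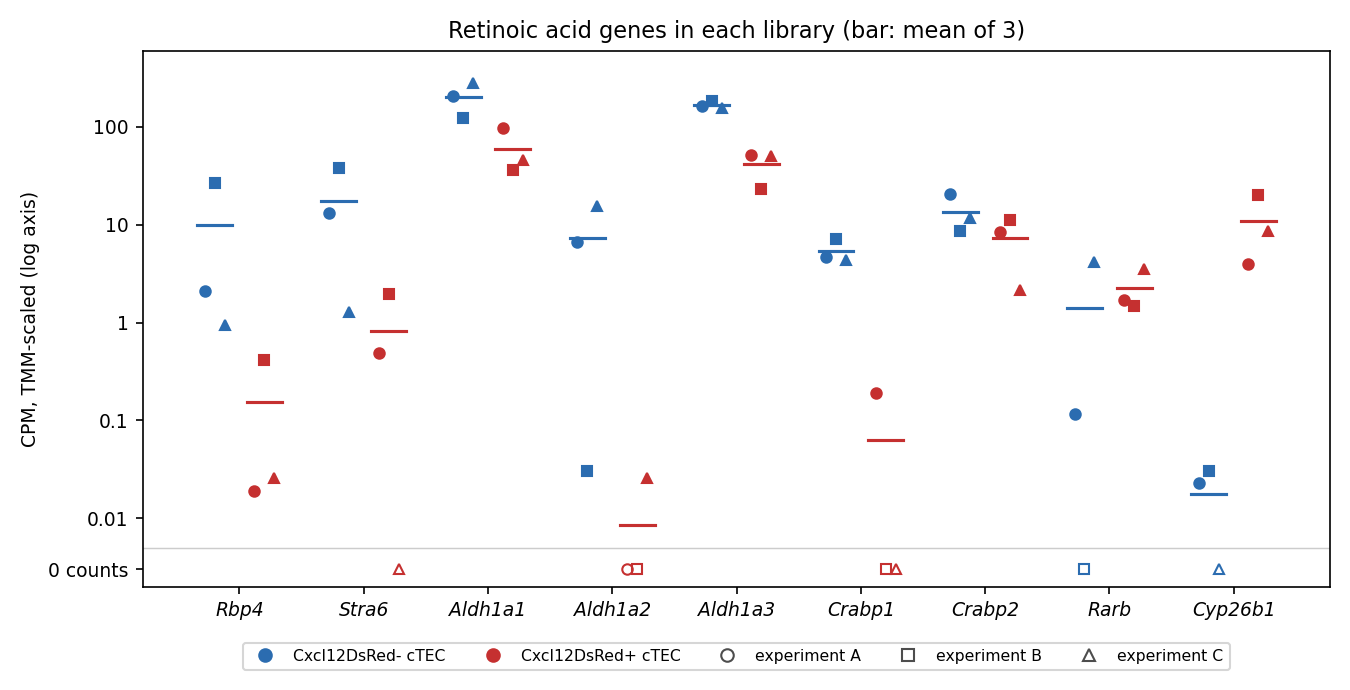
CPM of each of the 9 genes on a log axis, with 1 point per library, *Cxcl12*DsRed- cTEC left of *Cxcl12*DsRed+ cTEC for each gene, symbols for the experiments, bars for the mean of 3 libraries, and open symbols on the lowest line for libraries with 0 counts. *Aldh1a1* and *Aldh1a3* are the highest genes in both subsets, and *Cyp26b1* lies at or under 0.0304 CPM in *Cxcl12*DsRed- cTEC and between 3.93 and 20.2 CPM in *Cxcl12*DsRed+ cTEC.

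Supply genes were low in *Cxcl12*DsRed+ cTEC and differed widely among the *Cxcl12*DsRed- cTEC libraries. *Rbp4* (chr19:38116629-38125281, minus strand, mm10), which encodes the plasma carrier of retinol, had 2.10, 26.7 and 0.935 CPM in *Cxcl12*DsRed- cTEC of experiments A, B and C, against 0.0189, 0.417 and 0.0258 CPM in *Cxcl12*DsRed+ cTEC. Every *Cxcl12*DsRed- cTEC library lay above every *Cxcl12*DsRed+ cTEC library, and experiment B was the highest in both subsets. The means were 9.91 ± 14.5 CPM in *Cxcl12*DsRed- cTEC, against 0.154 ± 0.228 CPM in *Cxcl12*DsRed+ cTEC (SD, n = 3 each), with a log2 fold change of 5.98 (SE 1.97, adjusted p = 0.276, edgeR quasi-likelihood test). The likelihood ratio test gave *Rbp4* an adjusted p of 0.0319 and DESeq2 one of 0.00244. Without the *Cxcl12*DsRed- cTEC library of B the log2 fold change of *Rbp4* was 3.27 (SE 1.71).

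*Stra6* (chr9:58063788-58153996, plus strand), the membrane receptor that takes up retinol from RBP4, had 13.2, 38.0 and 1.28 CPM in *Cxcl12*DsRed- cTEC, against 0.491, 1.98 and 0 CPM in *Cxcl12*DsRed+ cTEC. It was higher in *Cxcl12*DsRed- cTEC within each of the 3 experiments, but the lowest *Cxcl12*DsRed- cTEC library, C, lay below the highest *Cxcl12*DsRed+ cTEC library, B. The log2 fold change was 4.40 (SE 1.85, 95% interval 0.02 to 8.78, adjusted p = 0.421, edgeR quasi-likelihood test), and only DESeq2 (adjusted p = 0.0484) and the likelihood ratio test with experiment as a block (adjusted p = 9.5e-05) called it. The range of *Stra6* overlaps that of the opposite-strand gene *Ccdc33*, with no shared exon bases. *Ccdc33* had 414, 648 and 7 counts in *Cxcl12*DsRed- cTEC and 0 in each *Cxcl12*DsRed+ cTEC library.

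The synthesis genes *Aldh1a1* and *Aldh1a3* were the most abundant members. *Aldh1a1* (chr19:20492715-20643465, plus strand), a retinal dehydrogenase that also oxidises other aldehydes, had 205, 123 and 281 CPM in *Cxcl12*DsRed- cTEC, against 96.5, 36.6 and 46.4 CPM in *Cxcl12*DsRed+ cTEC. The lowest *Cxcl12*DsRed- cTEC library, B, still lay above the highest *Cxcl12*DsRed+ cTEC library, A. *Aldh1a1* averaged 203 ± 79.3 CPM in *Cxcl12*DsRed- cTEC, against 59.8 ± 32.1 CPM in *Cxcl12*DsRed+ cTEC (SD, n = 3 each), with a log2 fold change of 1.76 (SE 0.46, 95% interval 0.68 to 2.85, adjusted p = 0.154, edgeR quasi-likelihood test). The likelihood ratio test (adjusted p = 0.0103) and DESeq2 (adjusted p = 0.00382) called *Aldh1a1*.

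*Aldh1a3* (chr7:66390890-66427517, minus strand), the retinal dehydrogenase known from the developing eye and nasal region, had 165, 184 and 156 CPM in *Cxcl12*DsRed- cTEC, against 52.1, 23.2 and 50.02 CPM in *Cxcl12*DsRed+ cTEC. Its *Cxcl12*DsRed- cTEC libraries were the most alike of any member's, and the lowest of them, C, lay above the highest *Cxcl12*DsRed+ cTEC library, A. *Aldh1a3* averaged 168 ± 14.2 CPM in *Cxcl12*DsRed- cTEC, against 41.8 ± 16.1 CPM in *Cxcl12*DsRed+ cTEC (SD, n = 3 each), with a log2 fold change of 2.01 (SE 0.33, 95% interval 1.22 to 2.80). Its adjusted p was 0.0621 in the quasi-likelihood test, 3.5e-05 in the likelihood ratio test and 0.0464 in the quasi-likelihood test with no filter on low counts.

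*Aldh1a2* (chr9:71215789-71296243, plus strand), the main retinal dehydrogenase of embryonic mesoderm, had 286, 1 and 628 counts in *Cxcl12*DsRed- cTEC of A, B and C, against 0, 0 and 1 count in *Cxcl12*DsRed+ cTEC. The signal thus came from the *Cxcl12*DsRed- cTEC libraries of A and C, and that of B was at the level of a single count, as in *Cxcl12*DsRed+ cTEC. Over all libraries, the ratio of counts relative to library size, *Cxcl12*DsRed- cTEC over *Cxcl12*DsRed+ cTEC, was 1094, with a 95% counting interval of 196 to 43250 that covers counting error only. Since a single *Cxcl12*DsRed+ cTEC library held a single count, the size of this ratio is poorly fixed. In the 7 alternatives whose filter kept *Aldh1a2*, its adjusted p was 0.1004 to 0.464, and 0.175 with no filter.

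Relative to exon length, the 3 ALDH1A transcripts summed to 80.3, 64.7 and 97.6 CPM per kilobase in *Cxcl12*DsRed- cTEC, against 30.8, 12.4 and 20.2 CPM per kilobase in *Cxcl12*DsRed+ cTEC. The sum averaged 80.9 ± 16.4 CPM per kilobase in *Cxcl12*DsRed- cTEC, against 21.2 ± 9.24 CPM per kilobase in *Cxcl12*DsRed+ cTEC (SD, n = 3 each, p = 0.1 in a two-sided exact permutation test, which cannot go lower with 3 libraries a subset). Within that sum, the make-up overlapped between the subsets. *Aldh1a1* took 49.6 ± 10.2% of it in *Cxcl12*DsRed- cTEC and 56.5 ± 8.91% in *Cxcl12*DsRed+ cTEC (SD, n = 3 each, exact permutation p = 0.5), and *Aldh1a3* took 46.9 ± 13.6% in *Cxcl12*DsRed- cTEC and 43.5 ± 8.87% in *Cxcl12*DsRed+ cTEC (exact permutation p = 0.7). *Aldh1a2* took 3.63%, 0.0208% and 6.99% in *Cxcl12*DsRed- cTEC of A, B and C, and at most 0.0563% in any *Cxcl12*DsRed+ cTEC library. Of the 50-base stretches in *Aldh1a1* transcripts, 3.06% also occur in *Aldh1a7*, a close relative that had at most 0.910 CPM in any library.

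**Figure D2:**
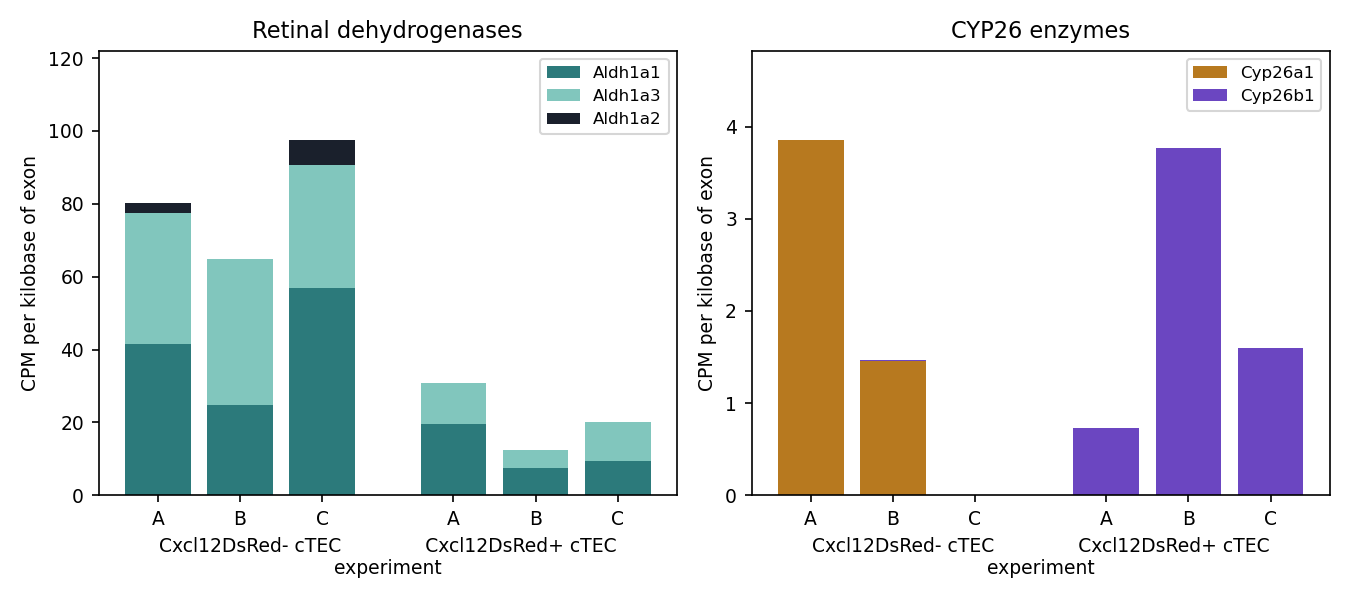
Stacked bars of CPM per kilobase of exon in each library, *Cxcl12*DsRed- cTEC left and *Cxcl12*DsRed+ cTEC right, experiments A to C, for the retinal dehydrogenases (left panel) and the CYP26 enzymes (right panel). The ALDH1A sum is higher in every *Cxcl12*DsRed- cTEC library (64.7 to 97.6) than in every *Cxcl12*DsRed+ cTEC library (12.4 to 30.8), and the CYP26 signal is almost all *Cyp26a1* in the *Cxcl12*DsRed- cTEC libraries of A and B and all *Cyp26b1* in *Cxcl12*DsRed+ cTEC.

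The retinoic acid carriers did not share a pattern. *Crabp1* (chr9:54764748-54773110, plus strand), a cytosolic carrier of retinoic acid, had 201, 235 and 177 counts in *Cxcl12*DsRed- cTEC and 10, 0 and 0 counts in *Cxcl12*DsRed+ cTEC. Every *Cxcl12*DsRed- cTEC library was well above every *Cxcl12*DsRed+ cTEC library, at 5.38 ± 1.54 CPM in *Cxcl12*DsRed- cTEC, against 0.0630 ± 0.109 CPM in *Cxcl12*DsRed+ cTEC (SD, n = 3 each). The log2 fold change of *Crabp1* was 6.32 (SE 1.87, 95% interval 1.88 to 10.76, adjusted p = 0.216, edgeR quasi-likelihood test), and 10.75 without the *Cxcl12*DsRed+ cTEC library of A, the only *Cxcl12*DsRed+ cTEC library with counts. The likelihood ratio test (adjusted p = 0.0149) and DESeq2 (adjusted p = 0.00144) called it.

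*Crabp2* (chr3:87948666-87953376, plus strand), the carrier known to deliver retinoic acid to nuclear receptors, had 20.5, 8.61 and 11.8 CPM in *Cxcl12*DsRed- cTEC, against 8.41, 11.2 and 2.14 CPM in *Cxcl12*DsRed+ cTEC. The subsets overlapped, and *Cxcl12*DsRed- cTEC was higher in A and C and lower in B. The log2 fold change of *Crabp2* was 0.91 (SE 0.73, 95% interval -0.82 to 2.64, adjusted p = 0.748, edgeR quasi-likelihood test), and this interval includes 0.

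*Fabp5*, a fatty acid binding protein that can also carry retinoic acid, was the most abundant carrier, with 238, 488 and 157 CPM in *Cxcl12*DsRed- cTEC, against 1138, 2041 and 1168 CPM in *Cxcl12*DsRed+ cTEC. It was lower in every *Cxcl12*DsRed- cTEC library than in every *Cxcl12*DsRed+ cTEC library, with a log2 fold change of -2.30 (SE 0.47) and an adjusted p of 0.0923 in the quasi-likelihood test and 0.0455 with the block by experiment. Relative to exon length, *Fabp5* took 80.4 ± 8.25% of the carrier sum in *Cxcl12*DsRed- cTEC and 98.7 ± 0.776% in *Cxcl12*DsRed+ cTEC (SD, n = 3 each, exact permutation p = 0.1). *Crabp1* took 7.25 ± 1.83% in *Cxcl12*DsRed- cTEC and 0.0241 ± 0.0418% in *Cxcl12*DsRed+ cTEC, and *Crabp2* took 12.4 ± 7.13% in *Cxcl12*DsRed- cTEC and 1.30 ± 0.744% in *Cxcl12*DsRed+ cTEC (exact permutation p = 0.1 for each). These shares are parts of the same sum, which was mostly *Fabp5*, so they are not separate results. The CPM of *Crabp2* itself overlapped between the subsets.

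*Rarb* (chr14:16430839-16819156, minus strand) encodes a retinoic acid receptor, and its transcription is known to be induced by retinoic acid through a response element at a promoter inside the gene. It is shown with *Cyp26a1*, a breakdown enzyme that is also known to be induced by retinoic acid, and *Cyp26b1*, since the 3 genes had different patterns here. The element is a DR5, a pair of hexamers in the same orientation with any 5 bases between them, where each hexamer reads AGGTCA or AGTTCA, and the further forms searched were GGGTCA and likewise GGTTCA, on either strand. The sequences are RefSeq promoter windows of 300 bases that span a start site, on GRCm38.p6 (the genome called mm10), at chr14:16575427-16575726 (minus strand) for *Rarb*, chr19:37697558-37697857 (plus strand) for *Cyp26a1* and chr6:84593761-84594060 (minus strand) for *Cyp26b1*. Capitals mark the DR5.
Rarb: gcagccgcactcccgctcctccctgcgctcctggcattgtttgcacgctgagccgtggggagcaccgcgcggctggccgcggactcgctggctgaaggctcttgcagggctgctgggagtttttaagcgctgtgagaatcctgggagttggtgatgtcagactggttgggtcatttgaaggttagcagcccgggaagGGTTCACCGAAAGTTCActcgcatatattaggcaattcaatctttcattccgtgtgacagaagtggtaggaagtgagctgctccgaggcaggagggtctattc
Cyp26a1: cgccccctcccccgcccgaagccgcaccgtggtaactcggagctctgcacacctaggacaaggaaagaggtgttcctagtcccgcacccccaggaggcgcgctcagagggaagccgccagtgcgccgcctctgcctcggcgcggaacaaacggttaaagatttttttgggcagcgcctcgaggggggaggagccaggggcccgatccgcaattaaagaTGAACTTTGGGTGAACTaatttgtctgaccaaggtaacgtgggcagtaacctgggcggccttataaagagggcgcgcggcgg
Cyp26b1: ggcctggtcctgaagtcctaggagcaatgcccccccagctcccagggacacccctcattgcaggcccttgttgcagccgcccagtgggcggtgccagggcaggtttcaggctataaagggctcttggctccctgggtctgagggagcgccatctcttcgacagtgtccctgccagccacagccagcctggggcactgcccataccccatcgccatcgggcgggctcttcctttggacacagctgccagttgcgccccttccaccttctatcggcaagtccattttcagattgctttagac
The *Rarb* window held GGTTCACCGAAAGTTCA at 53 to 37 bases before the start. The *Cyp26a1* window held the DR5 on its other strand, at 32 to 16 bases before the start, where it reads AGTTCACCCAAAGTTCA. No DR5 was found in the *Cyp26b1* window. Of all 32851 mouse promoter windows of this length, 0.0974% held a DR5, against 0.222% with the same hexamers 1 base apart (DR1), 0.268% with 2 bases between them (DR2) and 43.7% with any single hexamer. RefSeq windows were matched for 7 of the 9 members (12 windows, 1 with a DR5) and 43 of 57 other retinoid genes (61 windows, 1 with a DR5). A match describes the sequence and is not a measured binding site.

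Counts did not place *Rarb* higher in either subset. It had 5, 0 and 169 counts in *Cxcl12*DsRed- cTEC of A, B and C, and 90, 71 and 138 counts in *Cxcl12*DsRed+ cTEC, so that the *Cxcl12*DsRed- cTEC library of C had the highest CPM of all 6 (4.16) and those of A and B the lowest (0.115 and 0). The log2 fold change of *Rarb* was -0.65 (SE 1.87, 95% interval -5.08 to 3.77, adjusted p = 0.954, edgeR quasi-likelihood test), and -5.18 (SE 1.93, adjusted p = 0.264) without the *Cxcl12*DsRed- cTEC library of C. Of its exon bases, 34.1% lie under exons of *Top2b* on the opposite strand, and the labels and methods do not say whether counting used strand. *Top2b* had 846 to 1679 counts in *Cxcl12*DsRed- cTEC and 1549 to 2604 in *Cxcl12*DsRed+ cTEC.

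*Cyp26b1* (chr6:84571414-84593908, minus strand), an enzyme that breaks down retinoic acid, had 1, 1 and 0 counts in *Cxcl12*DsRed- cTEC of A, B and C, against 208, 967 and 333 counts in *Cxcl12*DsRed+ cTEC. All 3 *Cxcl12*DsRed+ cTEC libraries lay far above all 3 *Cxcl12*DsRed- cTEC libraries, at 0.0178 ± 0.0159 CPM in *Cxcl12*DsRed- cTEC, against 10.9 ± 8.36 CPM in *Cxcl12*DsRed+ cTEC (SD, n = 3 each). The ratio of summed counts relative to library size, *Cxcl12*DsRed+ cTEC over *Cxcl12*DsRed- cTEC, was 631, with a 95% counting interval of 174 to 5213. The log2 fold change of *Cyp26b1*, *Cxcl12*DsRed- cTEC over *Cxcl12*DsRed+ cTEC, was -9.07 (SE 1.38, 95% interval -12.33 to -5.80), and its adjusted p of 0.0502 in the quasi-likelihood test missed the threshold by a small margin. It passed with RLE size factors (0.04995), with library totals only (0.0488), with no filter (0.0356) and with a filter at a mean of 1 CPM (0.0462), and in the likelihood ratio test (4.7e-07). With a block by experiment its quasi-likelihood adjusted p was 0.1105.

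*Cyp26a1* had the opposite pattern in part of the libraries. It had 331, 95 and 0 counts in *Cxcl12*DsRed- cTEC of A, B and C and 0 in every *Cxcl12*DsRed+ cTEC library, which gives a mean at least 53.6-fold higher in *Cxcl12*DsRed- cTEC when each *Cxcl12*DsRed+ cTEC library is set to a floor of 3 counts. Without the *Cxcl12*DsRed- cTEC library of A, which held 331 of the 426 counts, the same bound was 22.1-fold. The *Cxcl12*DsRed- cTEC library of C was at 0 like the *Cxcl12*DsRed+ cTEC libraries, and *Cyp26a1* did not pass the filter on low counts. Relative to exon length, *Cyp26a1* made up 99.9% and 99.6% of the CYP26 signal in *Cxcl12*DsRed- cTEC of A and B, and *Cyp26b1* made up 100% of it in each *Cxcl12*DsRed+ cTEC library. The CYP26 sum was 3.86, 1.46 and 0 CPM per kilobase in *Cxcl12*DsRed- cTEC, against 0.735, 3.77 and 1.60 CPM per kilobase in *Cxcl12*DsRed+ cTEC (exact permutation p = 0.7). *Cyp26c1* had 0 counts in every library.

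**Figure D3:**
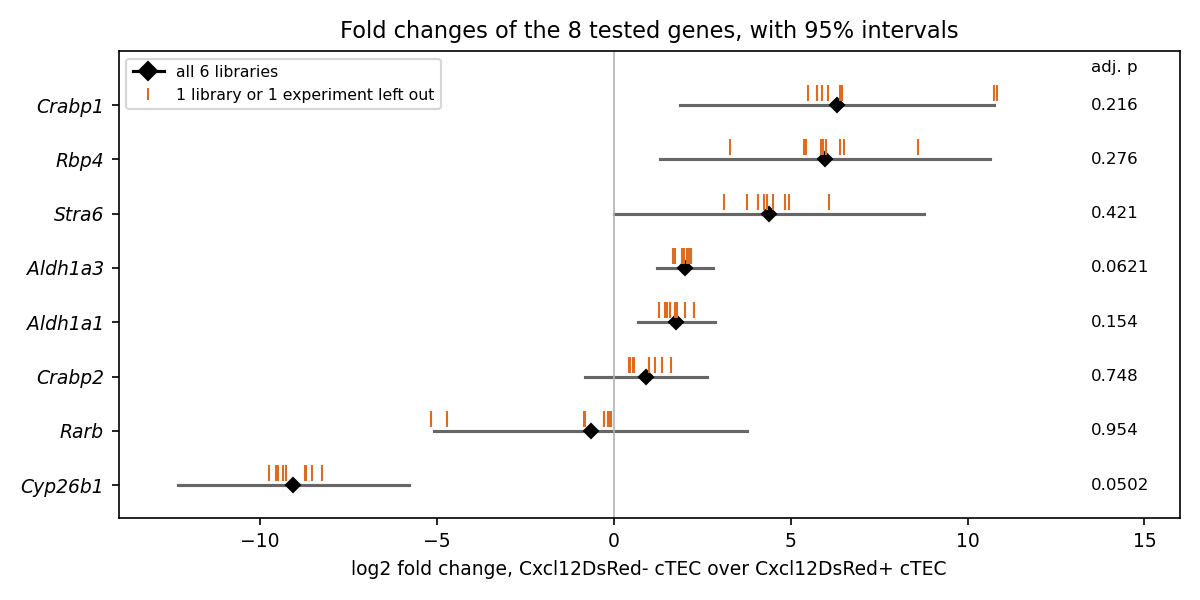
Log2 fold change of the 8 tested genes, *Cxcl12*DsRed- cTEC over *Cxcl12*DsRed+ cTEC, with the 95% interval from edgeR's quasi-likelihood test (diamonds and lines), the value with 1 library or 1 experiment left out (ticks), and the adjusted p at the right. All leave-out values keep the sign of the full fit, from 1.66 to 2.18 for *Aldh1a3*, the narrowest, and from -5.18 to -0.07 for *Rarb*, the widest relative to its size.

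The order of the members by level per kilobase differed between the subsets below the top. In *Cxcl12*DsRed- cTEC the mean CPM per kilobase was 41.2 for *Aldh1a1*, 36.5 for *Aldh1a3*, 10.3 for *Crabp2*, 7.38 for *Rbp4*, 6.71 for *Crabp1*, 3.25 for *Aldh1a2*, 3.0 for *Stra6*, 0.270 for *Rarb* and 0.00333 for *Cyp26b1*. In *Cxcl12*DsRed+ cTEC it was 12.1 for *Aldh1a1*, 9.05 for *Aldh1a3*, 5.48 for *Crabp2*, 2.04 for *Cyp26b1*, 0.427 for *Rarb*, 0.141 for *Stra6*, 0.115 for *Rbp4*, 0.0786 for *Crabp1* and 0.00379 for *Aldh1a2*. The first 3 places were thus the same, and *Cyp26b1* stood last in *Cxcl12*DsRed- cTEC but above *Rarb* in *Cxcl12*DsRed+ cTEC. Neighbours in this order overlapped over the 3 libraries of a subset, except for *Aldh1a3* and *Crabp2* in *Cxcl12*DsRed- cTEC and *Cyp26b1* and *Rarb* in *Cxcl12*DsRed+ cTEC.

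A list of 57 other genes of retinoid metabolism and response was counted in the same fit, of which 41 were tested and 5 had 0 counts in every library. Of these 41, 0 passed as higher in *Cxcl12*DsRed- cTEC and 1 passed as lower, where 0.449% of all genes passed as higher and 0.173% as lower. At an unadjusted p under 0.05 there were 8 of 41, where 11.8% of all genes were under it. The likelihood ratio test of edgeR called 1 of the 41 higher and 3 lower, where it called 3.53% of all genes higher and 2.12% lower. DESeq2 called 1 higher and 2 lower, where it called 4.52% and 2.42% of all genes. The median log2 fold change over the 41 was 0.05, against 0.02 for all genes tested. The subsets did not overlap for 10 of the 41, with *Cxcl12*DsRed- cTEC higher for 5 and lower for 5. Of all genes tested, 19.0% did not overlap, 9.73% with *Cxcl12*DsRed- cTEC higher and 9.32% with it lower. This list too was chosen with earlier results of these data known. The gene that passed was *Rbp7*, a cellular retinol binding protein known from endothelium and adipose tissue. *Rbp7* had 6, 1 and 3 counts in *Cxcl12*DsRed- cTEC and 815, 1863 and 9126 counts in *Cxcl12*DsRed+ cTEC, and it fell by 10.12 on the log2 scale in *Cxcl12*DsRed- cTEC (SE 1.43, adjusted p = 0.0444, edgeR quasi-likelihood test). The call was lost with any library left out, over which its log2 fold change was between -10.75 and -8.35, the smallest without the *Cxcl12*DsRed+ cTEC library of C, and with experiment as a block (adjusted p = 0.06995). Without a library of A or B, from either subset, 0 of all genes passed, so the loss there is not particular to *Rbp7*. Over all genes, 139 passed without the *Cxcl12*DsRed- cTEC library of C and 1 without the *Cxcl12*DsRed+ cTEC library of C.

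In uptake, the highest gene of the list was *Scarb1*, a scavenger receptor that takes up carotenoids and lipoprotein cholesterol, with 36.9, 18.7 and 7.18 CPM in *Cxcl12*DsRed- cTEC, against 147, 184 and 1346 CPM in *Cxcl12*DsRed+ cTEC. Its log2 fold change was -4.74 (SE 1.11, adjusted p = 0.118 in the quasi-likelihood test and 0.000369 in the likelihood ratio test). The *Cxcl12*DsRed+ cTEC library of C held most of its signal, and without it the log2 fold change was -3.03 (SE 0.63, adjusted p = 0.172, quasi-likelihood test). *Rbp7* and *Scarb1* were both highest in the *Cxcl12*DsRed+ cTEC library of C, the library with the highest endothelial markers. *Cyp26b1* was highest in the *Cxcl12*DsRed+ cTEC library of B.

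In the step between retinol and retinal, 18 genes were listed and 12 tested. *Adh1*, an alcohol dehydrogenase that oxidises retinol, had 273, 99.0 and 248 CPM in *Cxcl12*DsRed- cTEC, against 36.5, 49.4 and 86.1 CPM in *Cxcl12*DsRed+ cTEC, and the subsets did not overlap. Its log2 fold change was 1.85 (SE 0.48), close in size to those of *Aldh1a1* and *Aldh1a3*, with an adjusted p of 0.150 in the quasi-likelihood test and 0.00820 in the likelihood ratio test. *Adh5*, the most abundant gene of this step and best known as the glutathione-dependent formaldehyde dehydrogenase, had 158, 111 and 232 CPM in *Cxcl12*DsRed- cTEC, against 213, 232 and 229 CPM in *Cxcl12*DsRed+ cTEC, with a log2 fold change of -0.43 (SE 0.28, adjusted p = 0.654).

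The list also held 6 receptor genes and 6 coregulators, all of which were tested. *Rxra*, the partner of the retinoic acid receptors and the most abundant of the receptors, had 55.6, 85.1 and 57.4 CPM in *Cxcl12*DsRed- cTEC, against 60.5, 61.3 and 54.9 CPM in *Cxcl12*DsRed+ cTEC, with a log2 fold change of 0.16 (SE 0.24, adjusted p = 0.894). *Ppard*, a nuclear receptor to which FABP5 can pass retinoic acid, had a log2 fold change of 1.67 (SE 0.94, adjusted p = 0.592). The corepressor *Ncor1* had a log2 fold change of 0.04 (SE 0.28, adjusted p = 0.980), and the coactivator *Ncoa3* one of 0.69 (SE 0.25, adjusted p = 0.333, all from edgeR's quasi-likelihood test).

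Of 11 other genes known to respond to retinoic acid, 10 were tested. *Tgm2*, a transglutaminase, was the most abundant, with 214, 192 and 144 CPM in *Cxcl12*DsRed- cTEC, against 196, 147 and 404 CPM in *Cxcl12*DsRed+ cTEC, and a log2 fold change of -0.44 (SE 0.39, adjusted p = 0.781). *Cdx1*, a homeobox gene of the posterior embryo and gut, had 8.78, 26.3 and 1.06 CPM in *Cxcl12*DsRed- cTEC, against 0.227, 1.92 and 0.0515 CPM in *Cxcl12*DsRed+ cTEC. It was higher in *Cxcl12*DsRed- cTEC within each experiment, with experiment B the highest in both subsets as for *Rbp4* and *Stra6*, and its log2 fold change was 4.03 (SE 1.67, adjusted p = 0.415, edgeR quasi-likelihood test). The likelihood ratio test gave *Cdx1* an adjusted p of 0.144, which became 0.00104 with a block by experiment. With 1 library left out, its log2 fold change was between 2.74 without the *Cxcl12*DsRed- cTEC library of B and 6.35 without the *Cxcl12*DsRed+ cTEC library of B.

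**Figure D4:**
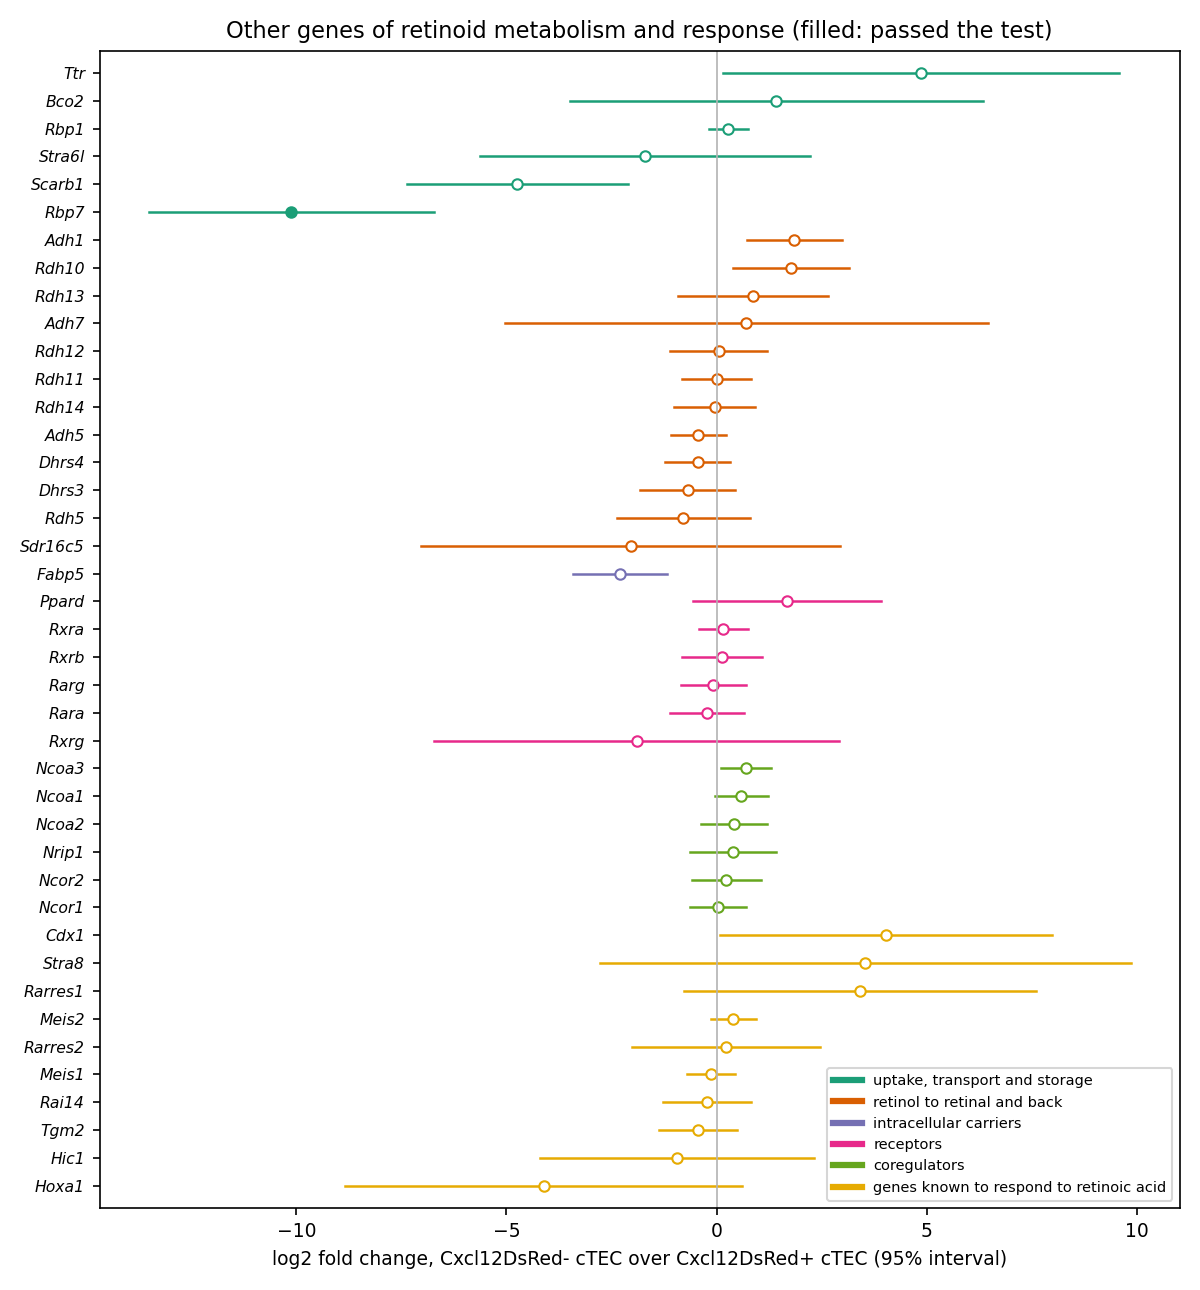
Log2 fold change with its 95% interval for the 41 tested genes of the wider retinoid list, *Cxcl12*DsRed- cTEC over *Cxcl12*DsRed+ cTEC, grouped by role. The filled point is *Rbp7*, at -10.12, the 1 gene that passed the quasi-likelihood test, and receptor and coregulator genes such as *Rxra* (0.16) and *Ncor1* (0.04) lie near 0.

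Markers of other cell types moved with the subsets beside these genes, and their part in the retinoid values was not tested. Mesothelial markers, of which 5 of 6 were matched, summed to 400 to 1363 CPM in *Cxcl12*DsRed- cTEC, against 9.90 to 31.5 CPM in *Cxcl12*DsRed+ cTEC, with 2 of the 5 higher in every *Cxcl12*DsRed- cTEC library and none at 0 in all libraries of a subset. Within *Cxcl12*DsRed- cTEC, *Msln*, the largest part of the mesothelial sum, had 1077, 680 and 258 CPM in A, B and C. *Upk1b* had 285, 104 and 109 CPM there. The sum was lowest in C, the library in which *Aldh1a2* was highest. The remaining matched markers were highest in C within *Cxcl12*DsRed- cTEC, as *Aldh1a2* was. *Upk3b* had 30, 0 and 649 counts in *Cxcl12*DsRed- cTEC of A, B and C and 13, 0 and 0 in *Cxcl12*DsRed+ cTEC. *Wt1* had 0, 0 and 74 counts in *Cxcl12*DsRed- cTEC and 1, 0 and 35 in *Cxcl12*DsRed+ cTEC. For *Lrrn4* these were 1, 0 and 612 counts and 46, 11 and 0 counts. The mesothelial markers thus did not share one order over the libraries. Fibroblast markers summed to 3738 to 5227 CPM in *Cxcl12*DsRed- cTEC, against 1308 to 1904 CPM in *Cxcl12*DsRed+ cTEC, with 2 of 12 higher in every *Cxcl12*DsRed- cTEC library and none at 0 in a subset. The largest part of this sum in every library was *Dcn*, with 3469, 3092 and 3118 CPM in *Cxcl12*DsRed- cTEC, against 1491, 1512 and 633 CPM in *Cxcl12*DsRed+ cTEC. The fibroblast sum in *Cxcl12*DsRed- cTEC was 3912, 3738 and 5227 CPM in A, B and C, while *Col1a1* (26.8, 43.1 and 187 CPM) and *Pdgfra* (4.92, 32.6 and 37.8 CPM) were lowest in A. In contrast, *Pi16* (18.5, 0.882 and 179 CPM), *Mfap5* (18.0, 4.93 and 143 CPM) and *Fbn1* (61.9, 21.2 and 92.8 CPM) were lowest in B. The subsets overlapped for each of these genes, and the fibroblast markers did not share one order over the libraries.

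Tuft cell markers summed to 505 to 2770 CPM in *Cxcl12*DsRed- cTEC, against 38.0 to 43.6 CPM in *Cxcl12*DsRed+ cTEC, with 12 of 12 higher in every *Cxcl12*DsRed- cTEC library and *Il25* at 0 in every *Cxcl12*DsRed+ cTEC library. Markers of simple and secretory epithelium summed to 2866 to 6745 CPM in *Cxcl12*DsRed- cTEC, against 891 to 1905 CPM in *Cxcl12*DsRed+ cTEC, with 8 of 10 higher in every *Cxcl12*DsRed- cTEC library and none at 0 in a subset. Myeloid markers summed to 181 to 956 CPM in *Cxcl12*DsRed- cTEC, against 35.2 to 100.1 CPM in *Cxcl12*DsRed+ cTEC, with 3 of 6 higher in every *Cxcl12*DsRed- cTEC library and none at 0 in a subset. Endothelial markers were lower in every *Cxcl12*DsRed- cTEC library for 11 of 12 genes, at 38.3 to 87.5 CPM in *Cxcl12*DsRed- cTEC, against 614 to 4845 CPM in *Cxcl12*DsRed+ cTEC, with none at 0 in a subset. *Cyp26b1* had 3.93, 20.2 and 8.58 CPM in *Cxcl12*DsRed+ cTEC of A, B and C, where the endothelial sum was 667, 614 and 4845 CPM. How the 2 relate was not tested. The sums of the next lists overlapped between the subsets. Pericyte markers summed to 387 to 521 CPM in *Cxcl12*DsRed- cTEC, against 509 to 1245 CPM in *Cxcl12*DsRed+ cTEC, with 2 of 7 lower in every *Cxcl12*DsRed- cTEC library. These were *Kcnj8* (6, 24 and 288 counts, against 938, 902 and 7197) and *Abcc9* (91, 2 and 118 counts, against 162, 1110 and 3486). Markers of mTEC summed to 5298 to 8552 CPM in *Cxcl12*DsRed- cTEC, against 2557 to 10622 CPM in *Cxcl12*DsRed+ cTEC, with 1 of 6 higher in every *Cxcl12*DsRed- cTEC library. Thymocyte markers summed to 41.0 to 77.8 CPM in *Cxcl12*DsRed- cTEC, against 34.2 to 245 CPM in *Cxcl12*DsRed+ cTEC, and red cell markers to 11.1 to 1932 CPM in *Cxcl12*DsRed- cTEC, against 137 to 3363 CPM in *Cxcl12*DsRed+ cTEC. Enterocyte and hepatocyte markers, which include the retinol carrier partner *Ttr*, summed to 6.42 to 277 CPM in *Cxcl12*DsRed- cTEC, against 1.32 to 4.66 CPM in *Cxcl12*DsRed+ cTEC, with 0 of 8 genes higher in every *Cxcl12*DsRed- cTEC library.

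**Figure D5:**
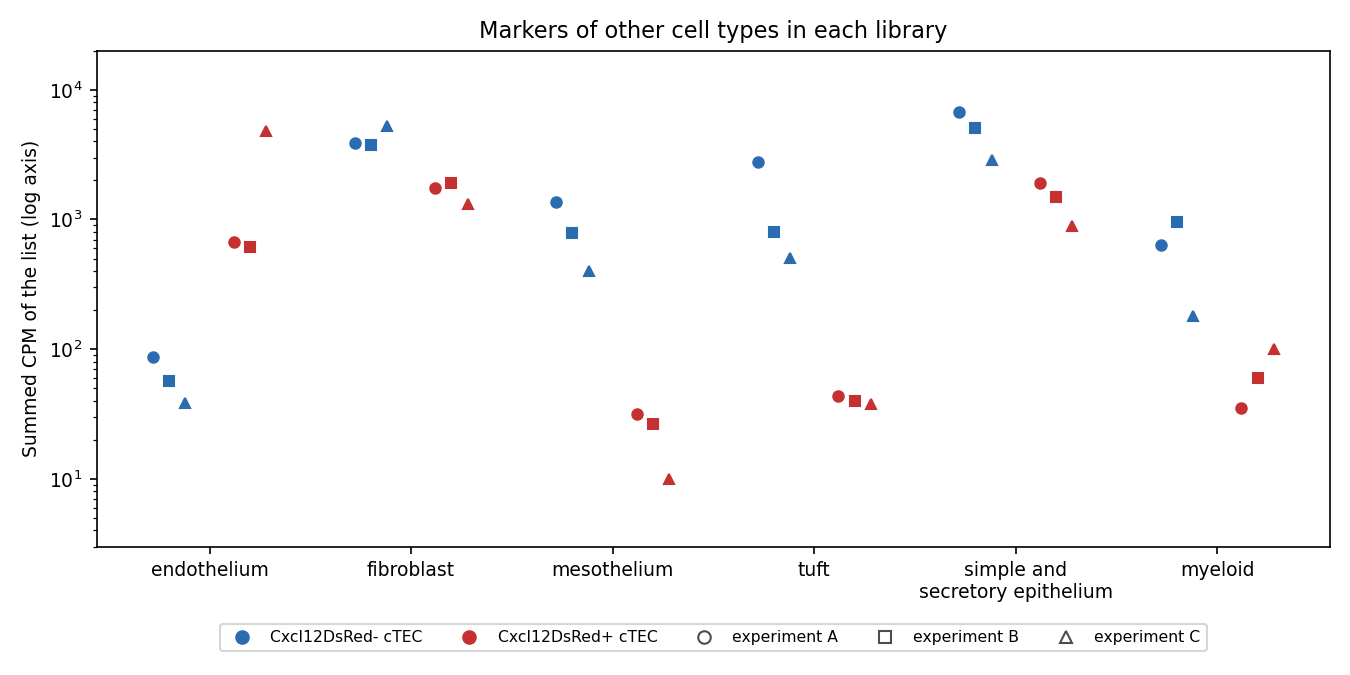
Summed CPM of 6 marker lists on a log axis, with 1 point per library, *Cxcl12*DsRed- cTEC left of *Cxcl12*DsRed+ cTEC for each list and symbols for the experiments. Endothelial markers are lower in *Cxcl12*DsRed- cTEC, the other 5 lists are higher in *Cxcl12*DsRed- cTEC, and the *Cxcl12*DsRed+ cTEC library of C is the highest for endothelium at 4845 CPM.

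The genes most like each member over the 6 libraries are given as a description, with Pearson's r of log2 CPM among 9517 or 9518 tested genes with a mean of at least 10 CPM. All points share the same 6 libraries and their split into 2 subsets. *Aldh1a3* was most like *Cldn8* (0.999), *Fgfbp1* (0.996) and *Tjp3* (0.992), genes of tight junctions and a secreted FGF carrier. *Aldh1a1* was most like *Id2* (0.994), *Csf1* (0.988) and *Mtrr* (0.988). *Stra6* was most like *Il23a* (0.998), *Bex3* (0.988) and *Grhl3* (0.988), and *Rbp4* most like *Tet3* (0.992), *Ikzf4* (0.985) and *5330417C22Rik* (0.984). *Crabp1* was most like *Ly6g6e* (0.997), *Coq8a* (0.994) and *Runx1* (0.992), and *Crabp2* most like *Ulk1* (0.985), *D2hgdh* (0.984) and *Arhgap4* (0.983). *Rarb* was most like *Chchd5* (0.998), *Nipsnap2* (0.996) and *Atf1* (0.993), and *Cyp26b1* most like *Clic5* (0.993), *Fgf14* (0.987) and *Agps* (0.984). *Aldh1a2* was left out here because it did not pass the filter on low counts.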

How the data were processed

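RNA of 3 *Cxcl12*DsRed- cTEC and 3 *Cxcl12*DsRed+ cTEC libraries was compared. The authors amplified poly(A) RNA with a SMARTer low-input kit, trimmed reads (Trimmomatic 0.36), aligned them to mm10 (STAR 2.7.3a) and assigned them to genes (HTSeq, intersection-nonempty mode). The deposited values are whole-number counts per gene, not normalized. Neither the annotation release nor the strand setting is stated in the labels or methods. Of 39277 entries, 39179 were genes. The 92 spike-in names (0 counts), the 5 HTSeq summaries and the DsRed reporter entered neither library sizes nor tests. Reads in no gene came to 5.87% to 9.35% of the counts in genes, ambiguous reads to 1.21% to 1.38% and reads aligned to several places to 5.61% to 9.07%. Symbols, coordinates and exon lengths came from a GENCODE annotation of GRCm38 (mm10), which held 37693 of the IDs.

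Counts were filtered with filterByExpr (minimum count 10), scaled by TMM and tested with edgeR 4.0.16 in R 4.3.3 (quasi-likelihood test, prior count 0.125, Benjamini-Hochberg at 0.05 over 15576 genes). The study's methods name edgeR at this threshold but not the test. Alternatives were the likelihood ratio test, a block by experiment under each of these tests, DESeq2 1.42.0 (532 adjusted p not available, *Rarb* among them), voom in limma 3.58.1, scaling by RLE or by library totals alone, dropping the filter, filtering at a mean of 1 CPM, removing marker genes of other cell types, and fits that omit a library or an experiment. Two-sided exact permutation tests cannot go below 0.1 over 6 libraries or 0.25 within 3 pairs. They used log2 CPM for single genes, log2 CPM per kilobase for sums and percentages for shares. Members gave 0.1 except *Stra6* and *Crabp2* (0.2) and *Rarb* (0.4), and within pairs 0.25 except *Crabp2* and *Rarb* (0.5).

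Libraries labelled with the same experiment were taken as pairs. Their deviations from the mean of the subset correlated at -0.00856 (A), 0.0607 (B) and 0.0417 (C), against -0.0703 to 0.0194 for the other combinations. No libraries were duplicates (chi-square per degree of freedom 154 to 388). The fit was tested on simulated data. Counting intervals (95%) and floors (3 counts per library) cover counting error only, since amplified reads are not independent molecules.

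Members, gene lists and tests were chosen with earlier results of these data known. All members are named. Of the other retinoid genes, those that passed are named, with the most abundant and the one with the smallest p of each role, and the 3 genes most like each member. Of 104 markers in 12 lists, 103 were matched.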

Additional observations from a re-analysis of the deposited data

How the results depend on the processing

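No log2 fold change of a tested member changed sign in any of the 19 alternatives. Against 0 members called in edgeR's quasi-likelihood test, the likelihood ratio test called 5, the likelihood ratio test with the replicate block 6 and DESeq2 6, and RLE size factors, library totals only and a mean of at least 1 CPM each called 1 (*Cyp26b1*). With no filter 2 were called, *Aldh1a3* and *Cyp26b1*. The replicate block in the quasi-likelihood test, voom, the counts without genes of other cell types and each leave-one-out fit called 0. Of the 41 other retinoid genes tested, 1 was called, against 4 in the likelihood ratio test, 5 with the block in it, 3 in DESeq2, 0 in voom and 0 with any library or experiment left out. With the block in the quasi-likelihood test 1 was called, *Fabp5* in place of *Rbp7*. Over all genes, 97 were called, against 880 in the likelihood ratio test, 1060 with the block in it, 1081 in DESeq2, 4 in voom, 168 with no filter, 73 with the replicate block in the quasi-likelihood test and 0 to 139 with a library or experiment left out. Leave-one-out fits that drop an experiment rest on 2 libraries per subset, so a lost call there does not show a smaller effect. The cause of the other changes was not tested. In the quasi-likelihood test, a block by experiment changed no other call among the retinoid genes tested. Counts of 0 or 1 limit the *Cxcl12*DsRed- cTEC level of *Cyp26b1* and the *Cxcl12*DsRed+ cTEC levels of *Aldh1a2* and *Cyp26a1*.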
